A study of Homo sapiens with 6 samples.

Results

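The expression of 10 genes for secreted angiogenic factors and their co-receptors was examined in SCC-9 cells, a cell line from a human squamous carcinoma of the tongue, after knockdown of MKI67 by an siRNA that targets its exon 7. The 10 genes were taken by symbol from the 25349 genes of the count table, and all 10 were found and all 10 passed the filter on low counts that 14661 genes passed. They were the VEGF family ligands VEGFA, VEGFB, VEGFC and PGF, the PDGF ligands PDGFA and PDGFB, the neuropilins NRP1 and NRP2, the vasoconstrictor EDN1 and the lipase inhibitor ANGPTL4. MKI67 encodes Ki67, a nuclear protein of dividing cells, and the study addressed what the form of Ki67 with exon 7 does in these cells. The group siKi had 3 libraries of cells given the MKI67 siRNA and the group NS had 3 libraries of cells given a nonspecific siRNA. Cells of both groups received 10 nM siRNA with a lipid reagent on day 0 and again on day 2, grew in DMEM/F12 with fetal bovine serum and hydrocortisone, and were collected for RNA on day 4 by the study's methods. The methods list several siRNAs against exon 7 and the labels do not say which of them was used, so the comparison is of 1 knockdown condition in 1 cell line. Nothing in the labels says that the libraries of a group came from separate cultures, so the p-values measure the spread between these libraries, which may be technical.

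The VEGF ligands bind receptor tyrosine kinases on endothelial cells and make blood and lymph vessels grow, VEGFA being the main signal for blood vessels and VEGFC for lymph vessels. The PDGF ligands, dimers of A and B chains, act on the fibroblasts and pericytes that surround vessels. Neuropilins are co-receptors with short cytoplasmic tails that bind both VEGF ligands and class 3 semaphorins, and carcinoma cells can carry them without the kinase receptors. Squamous carcinoma cells secrete many of these ligands, and VEGFA and ANGPTL4 are well known targets of the hypoxia-inducible factors (HIF).

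The 6 libraries held between 25608192 and 29550264 counts, and 2.22 to 2.75% of them were on mitochondrial genes. MKI67 was at 1072, 1029 and 1077 CPM (counts scaled to a common library size with TMM factors) in NS and at 112, 124 and 108 CPM in siKi, a 9.24-fold lower level. The siKi replicate 1 library stood apart from its group. Its counts differed from those of the other siKi libraries by a chi-square of 61.1 and 72.7 per degree of freedom, against 6.22 between siKi replicates 2 and 3 and 5.54 to 6.17 among the NS libraries, so the calls and fold changes of the 10 genes and the calls of the lists were also computed without it. The orders, percentiles, list medians and likeness below use all 6 libraries, as do the shares and ratios. The cells carried the epithelial marker genes, with a summed level of 23290 to 24810 CPM in NS and 21330 to 27810 CPM in siKi over 8 of 8 markers, while of 10 endothelial markers only ROBO4 passed the filter. A lower level in a bulk library cannot tell fewer cells with the RNA apart from less RNA per cell.

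With siKi, VEGFA and PGF rose while VEGFC, PDGFB, NRP1 and NRP2 fell. Of the 10 genes, 6 had an adjusted p under 0.05 (edgeR, adjusted over all tested genes), 2 higher and 4 lower, where 34.0% of all tested genes passed, 18.0% higher and 16.0% lower. PDGFB, NRP1 and NRP2 were also changed by more than 1 on the log2 scale, the size at which the study called a differentially expressed gene (DEG). None of the 10 genes was a DEG in the upward direction, and among all tested genes 4.84% were lower DEGs and 7.38% higher ones. The levels of the groups did not overlap for 7 of the 10 genes, 2 higher and 5 lower, beside 47.6% of all tested genes, 24.9% higher and 22.7% lower. The median log2 fold change was -0.29 over the 10 genes and 0.08 over all tested genes.

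Without siKi replicate 1, the other 5 libraries gave 2 higher and 7 lower genes, with EDN1 alone outside the threshold. The background rose as well: 58.4% of the tested genes passed without that library, 28.9% higher and 29.5% lower. VEGFB, PDGFA and ANGPTL4 were the genes gained. Leaving out the library that stood apart also lowered the biological coefficient of variation, the relative spread between libraries, from 0.157 to 0.0625. The small adjusted p-values without it rest on that smaller spread, with 2 siKi libraries. In VEGFB and ANGPTL4 the siKi replicate 1 library was within or above the NS range while the other 2 siKi libraries were below all NS libraries.

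**Figure D1:**
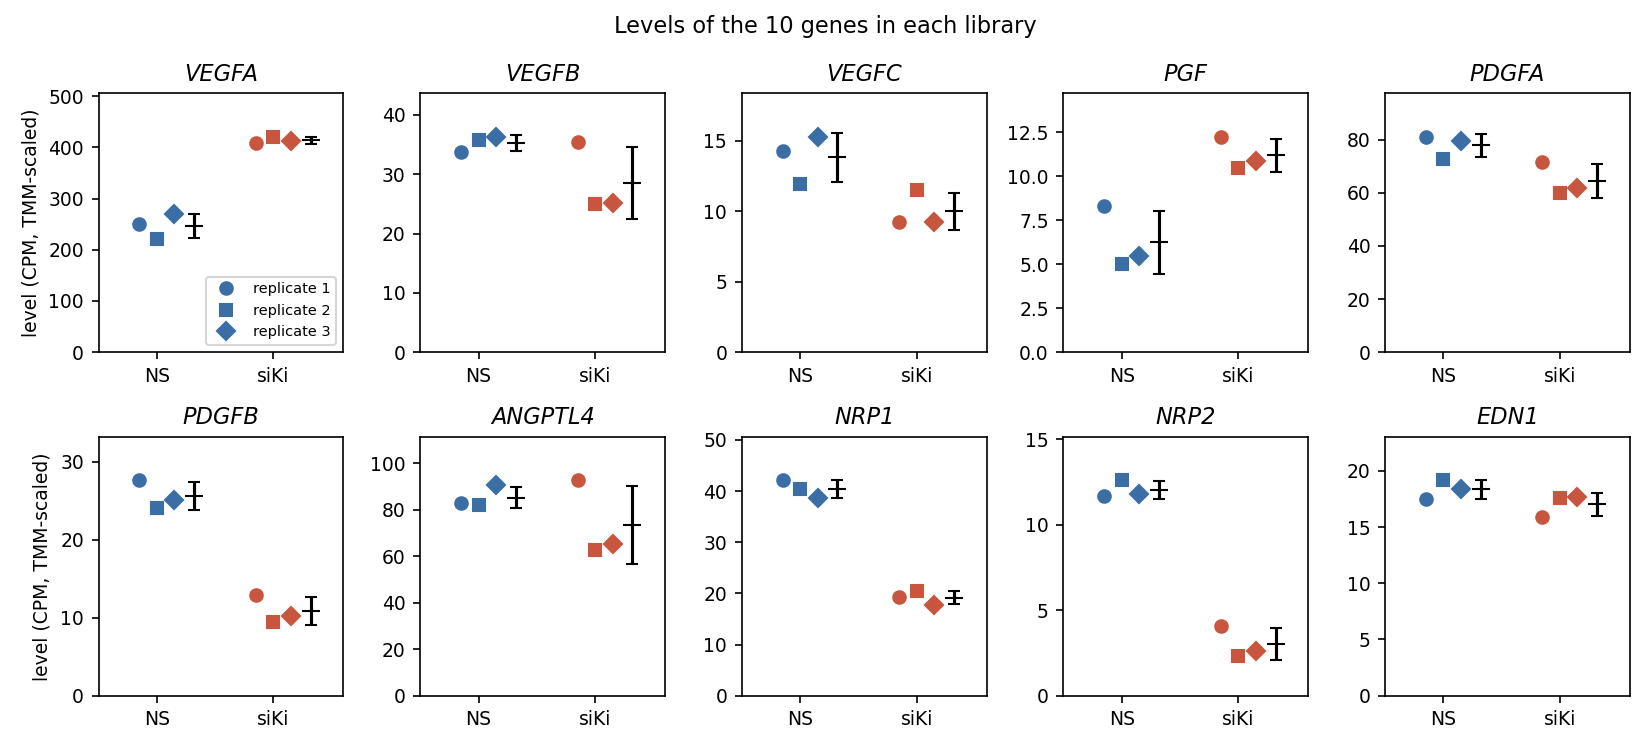
Level of each gene (CPM, TMM-scaled, y axes from 0) in the 3 NS (blue) and 3 siKi (red) libraries, with marker shapes for replicates 1, 2 and 3 and a black bar for the mean and SD of each group. NRP1, NRP2 and PDGFB lie lower and VEGFA and PGF higher in every siKi library, and in VEGFB and ANGPTL4 siKi replicate 1 lies within or above the NS range.

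**Figure D2:**
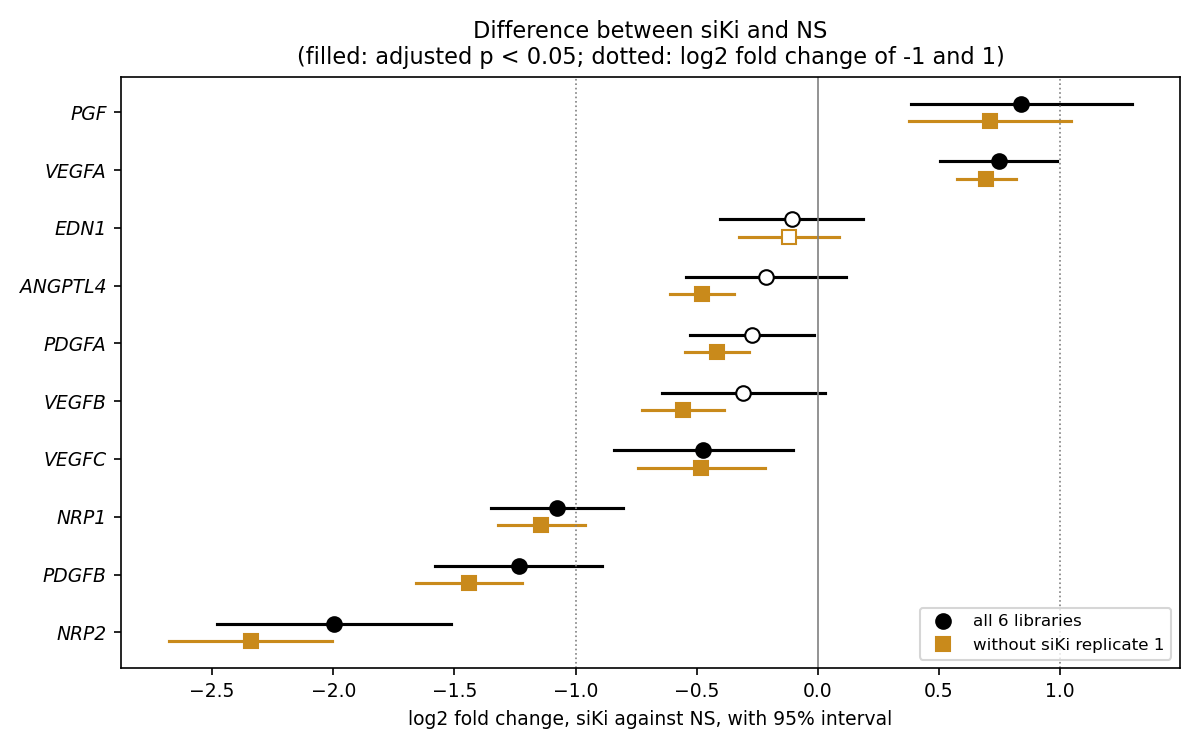
The log2 fold change of each gene (x axis, siKi against NS) with its 95% interval from edgeR, from all 6 libraries (black circles) and without siKi replicate 1 (orange squares), filled where the adjusted p was under 0.05. NRP2 was the lowest at -2.00 with all libraries, and VEGFB, PDGFA and ANGPTL4 pass the threshold only without siKi replicate 1.

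VEGFA (chromosome 6, 43770184 to 43786487, plus strand) encodes the ligand of the kinase receptors FLT1 and KDR. It was at 250, 222 and 269 CPM in NS and at 408, 421 and 413 CPM in siKi. Every siKi library was above every NS library, and the 3 siKi libraries lay closer together (414 ± 6.69 CPM, SD, n = 3) than the 3 NS libraries (247 ± 23.7 CPM, SD, n = 3). The rise was 1.68-fold, a log2 fold change of 0.75 (SE 0.11, 95% interval 0.51 to 0.99) with an adjusted p of 0.000433 by edgeR. It passed the threshold under all 14 alternative settings, from 0.67 to 0.92. The counts behind it ran from 5542 to 12630 per library. VEGFA shares 188 exon bases with a long noncoding RNA gene on the other strand, which had 13 counts in all libraries beside 55162 of VEGFA.

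PGF (chromosome 14, 74941834 to 74955626, minus strand) encodes placental growth factor, a VEGF family ligand that binds FLT1 and the neuropilins but not KDR. It was at 8.30, 5.00 and 5.45 CPM in NS and at 12.2, 10.5 and 10.9 CPM in siKi. The groups did not overlap, with NS replicate 1 closest to the siKi libraries. The level rose 1.79-fold, a log2 fold change of 0.84 (SE 0.21, 95% interval 0.39 to 1.30, adjusted p = 0.00944 by edgeR). The call rested on the NS libraries: the adjusted p was 0.0615 without NS replicate 2 and 0.0588 without NS replicate 3. The log2 fold change was 1.09 without NS replicate 1 and 1.00 without composition scaling, the 2 settings in which PGF passed as a DEG.

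The promoter sequences of RefSeq (GRCh38.p14, 250 bases before to 50 after a start site) held 13 windows for 7 of the 10 genes, PGF among them. They were searched on both strands for the letters GGGCGG (a GC box) and ACGTG (a form of the hypoxia response element core). The letters TGACTCA (an AP-1 site) and GGAATG (a TEAD site) were searched in the same way. All 7 genes had a GC box, which 48.3% of the 27305 genes in the RefSeq table also had, and the GC boxes lay in 11 of the 13 windows beside 45.0% of all 35116 windows. The 7 genes included ones that rose, fell and did not pass the test. VEGFA, PDGFB and NRP1 had no entry, so their promoters were not searched. Stretches around a GC box are shown for PGF, which rose, and for NRP2 and VEGFC, which fell, to let the surrounding bases be compared. They are in lower case from 5′ to 3′ on the strand of the gene, with that GC box in capitals. The box shown begins 70 bases before a start in PGF, 101 in NRP2 and 189 in VEGFC. It is an example, since the windows of PGF held 2 and 4 GC boxes, that of NRP2 held 3 and that of VEGFC held 2.
PGF, chr14:74955650-74955679, minus strand: ctcgtctgcggtGGGCGGggccggcccgga
NRP2, chr2:205682388-205682417, plus strand: ggaacacagaagGGGCGGgccctgagccgg
VEGFC, chr4:176793094-176793123, minus strand: cgcaggggacagGGGCGGggagggagagat

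VEGFB (chromosome 11, 64234584 to 64239264, plus strand), a ligand of FLT1 studied mostly in heart and muscle, was at 33.7, 35.8 and 36.4 CPM in NS and at 35.5, 24.9 and 25.1 CPM in siKi. The groups overlapped because siKi replicate 1 lay within the NS range, and the log2 fold change of -0.31 (SE 0.15, 95% interval -0.64 to 0.03, adjusted p = 0.145 by edgeR) did not pass the test. Without that library it was -0.56, with an adjusted p of 4.67e-07.

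VEGFC (chromosome 4, 176683538 to 176792922, minus strand), the ligand of the lymphatic receptor FLT4, was at 14.3, 11.9 and 15.3 CPM in NS and at 9.21, 11.5 and 9.22 CPM in siKi. All siKi libraries were below all NS libraries, but siKi replicate 2 and NS replicate 2 nearly met. VEGFC fell by 0.47 on the log2 scale (SE 0.17, 95% interval -0.84 to -0.10), with an adjusted p of 0.0487 by edgeR. This call was the least stable of the 6, since it held under 6 of 14 alternative settings, with adjusted p-values from 0.00172 to 0.19. It was lost without NS replicate 1 (0.148), NS replicate 2 (0.0626), NS replicate 3 (0.19) and siKi replicate 3 (0.142).

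Per kilobase of the canonical transcript, which allows genes to be compared, VEGFA was at 68.4 ± 6.57 CPM per kilobase in NS and 115 ± 1.85 in siKi (SD, n = 3). The sum of the 4 VEGF ligands was 97.7 ± 7.66 CPM per kilobase in NS and 141 ± 2.56 in siKi. VEGFA made up 69.9, 68.7 and 71.3% of that sum in the NS libraries and 78.6, 82.4 and 82.5% in the siKi libraries. VEGFB made up 18.9, 22.1 and 19.3% in NS and 13.7, 9.75 and 10.0% in siKi. The share of VEGFA was thus higher and that of VEGFB lower in every siKi library than in every NS library. Shares of a sum depend on each other. In siKi replicate 1 the level of VEGFB itself, 19.6 CPM per kilobase, was within the NS range. VEGFC went from 6.26 ± 0.31% to 3.13 ± 0.41% and PGF from 3.68 ± 1.00% to 4.55 ± 0.33% (SD, n = 3). The ratio of VEGFA to PGF overlapped between the groups, at 14.5, 21.4 and 23.8 in NS and 16.1, 19.4 and 18.3 in siKi. The shares depend on the transcript length assigned to each gene: with all annotated exons merged, VEGFA made up 41.3% in NS and 58.8% in siKi, and VEGFB rather than VEGFA was the largest share in NS, at 43.4%.

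PDGFA (chromosome 7, 497258 to 520296, minus strand) encodes the A chain, a ligand of the receptor PDGFRA. Its levels were 81.1, 72.7 and 79.5 CPM in NS and 71.6, 60.0 and 61.6 CPM in siKi. All siKi libraries were lower, by a small margin for siKi replicate 1, and the log2 fold change of -0.27 (SE 0.12, 95% interval -0.53 to -0.02) had an adjusted p of 0.0918 by edgeR. Without siKi replicate 1 it was -0.42, with an adjusted p of 1.11e-06.

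PDGFB (chromosome 22, 39223359 to 39244982, minus strand) encodes the B chain, which binds both PDGF receptors and recruits pericytes to vessels. It was at 27.7, 24.1 and 25.1 CPM in NS and at 12.9, 9.46 and 10.2 CPM in siKi. The lowest NS library was well above the highest siKi library, which was siKi replicate 1. The level was 2.35-fold lower in siKi, a log2 fold change of -1.24 (SE 0.16, 95% interval -1.58 to -0.89, adjusted p = 0.00019 by edgeR), and PDGFB passed under all 14 alternative settings, from -1.44 to -1.07.

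The 95% interval of PDGFB did not overlap that of PDGFA, although the difference between them was not itself tested. Per kilobase, PDGFA was at 3.99, 4.10 and 4.30 times the level of PDGFB in NS and at 7.51, 8.63 and 8.18 times in siKi. The ratio was therefore higher in each siKi library, siKi replicate 1 included. PDGFA made up 80.5 ± 0.60% of the summed PDGF level in NS and 89.0 ± 0.69% in siKi (SD, n = 3), while the sum itself went from 35.2 ± 2.05 to 26.4 ± 2.77 CPM per kilobase.

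NRP1 (chromosome 10, 33177492 to 33336262, minus strand) is a co-receptor for VEGFA and for SEMA3A. It was at 42.1, 40.3 and 38.7 CPM in NS and at 19.2, 20.4 and 17.8 CPM in siKi. The 3 libraries of each group lay close together and siKi replicate 1 lay between the other siKi libraries. NRP1 was 2.11-fold lower in siKi, a log2 fold change of -1.08 (SE 0.12, 95% interval -1.35 to -0.81, adjusted p = 8.96e-05 by edgeR), and passed under all 14 settings, from -1.14 to -0.91. Only without composition scaling was its change, -0.91, smaller than the DEG threshold.

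NRP2 (chromosome 2, 205681990 to 205798133, plus strand) is the co-receptor that binds VEGFC and SEMA3F. It was at 11.7, 12.6 and 11.8 CPM in NS and at 4.08, 2.32 and 2.62 CPM in siKi. No siKi library came near the NS libraries, and siKi replicate 1 was the highest of the siKi libraries. NRP2 had the largest change of the 10 genes, a 3.99-fold lower level and a log2 fold change of -2.00 (SE 0.22, 95% interval -2.48 to -1.51, adjusted p = 7.23e-05 by edgeR), and it passed under all 14 settings, from -2.34 to -1.84. These levels rest on 288 to 315 counts per NS library and 64 to 121 per siKi library. Noncoding genes on the other strand share 561 exon bases with NRP1 and 147 with NRP2 and have no row in the table, and whether the counting used the strand is not given in the sources used here.

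The intervals of NRP1 and NRP2 did not overlap, and the difference was not itself tested. NRP1 was at 4.25, 3.77 and 3.86 times the level of NRP2 per kilobase in NS and at 5.54, 10.4 and 8.01 times in siKi. The ratio was higher in all siKi libraries, though it varied more among them than in NS. The summed level of both neuropilins was 8.97 ± 0.30 CPM per kilobase in NS and 3.85 ± 0.26 in siKi (SD, n = 3). The level of VEGFA was 7.50, 6.80 and 8.64 times this sum in the NS libraries and 28.1, 29.4 and 32.3 times in the siKi libraries. The RNA of VEGFA and that of the neuropilins thus moved apart in every siKi library. This did not hold for every neuropilin ligand, since VEGFC (-0.47 on the log2 scale) and the semaphorin SEMA3A (-2.06) fell as well.

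**Figure D3:**
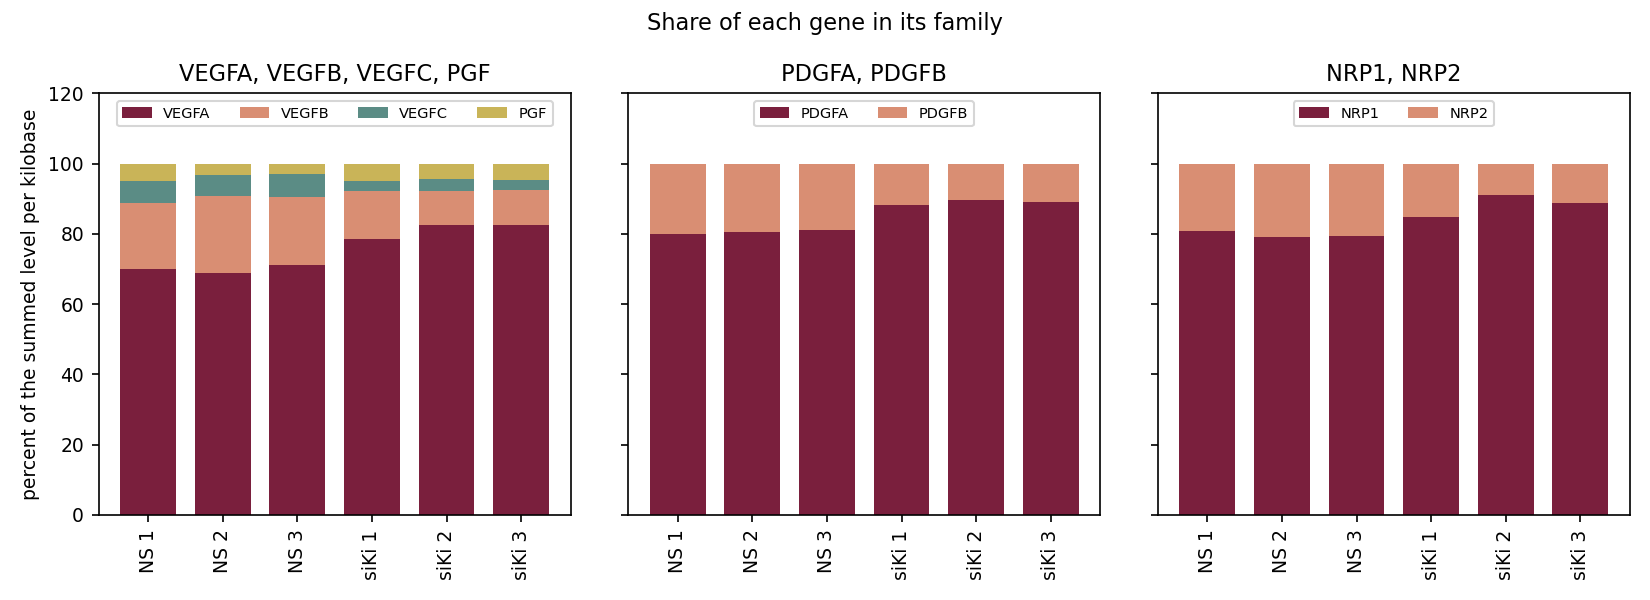
Share of each gene (y axis, percent) in the summed level per kilobase of its family in each library, for the VEGF ligands, the PDGF ligands and the neuropilins. The shares of VEGFA, PDGFA and NRP1 are higher in each siKi library than in each NS library, by the least for NRP1 in siKi replicate 1, at 84.7% beside 81.0% in NS replicate 1.

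The kinase and G protein-coupled receptors of these ligands were hardly present. None of the 9 listed receptors passed the filter, and together they had 18 to 28 counts per library, where NRP1 and NRP2 together had 624 to 1333. KDR, FLT4, PDGFRA and PDGFRB had at most 4 counts in any library, EDNRB at most 7 and EDNRA, the most counted, at most 11, while FLT1 has no row. A change in these receptors was not detectable at this depth.

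EDN1 (chromosome 6, 12290361 to 12297194, plus strand) encodes endothelin-1, a peptide that constricts vessels. It was at 17.5, 19.2 and 18.4 CPM in NS and at 15.9, 17.6 and 17.7 CPM in siKi. The groups overlapped, and the log2 fold change was -0.11 (SE 0.14, 95% interval -0.40 to 0.19, adjusted p = 0.568 by edgeR), so a change of up to these bounds in either direction is compatible with the data. Its unadjusted p was 0.443, it passed under 0 of the 14 settings, DESeq2 included, and its sign turned to 0.06 without composition scaling, a setting that moved the median of all tested genes by 0.17.

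ANGPTL4 (chromosome 19, 8363289 to 8374370, plus strand) encodes a secreted inhibitor of lipoprotein lipase. It was at 83.0, 82.0 and 90.5 CPM in NS and at 92.7, 62.5 and 65.1 CPM in siKi. The siKi replicate 1 library was the highest of the 6 and the other siKi libraries were the lowest. The log2 fold change was -0.21 (SE 0.15, 95% interval -0.55 to 0.12, adjusted p = 0.298 by edgeR), and without siKi replicate 1 it was -0.48, with an adjusted p of 5.09e-08. Both EDN1 and ANGPTL4 have the letters ACGTG of a hypoxia response element core in a RefSeq promoter window. So do 24.9% of the genes in the RefSeq table. None of the other 5 genes with an entry has these letters, and VEGFA, without an entry, was not searched. Other spellings of the core, such as GCGTG, were not searched, so these genes may still carry one. A stretch of EDN1 and of ANGPTL4 is shown on the strand of the gene, where the core reads as its reverse complement in capitals.
EDN1, chr6:12290226-12290255, plus strand: tatctccggctgCACGTtgcctgttggtga
ANGPTL4, chr19:8363909-8363938, plus strand: ggaaagaagagtCACGTctcccacggttcg
The letters TGACTCA were found in 0 of the 13 windows and in 4.95% of all windows, and GGAATG in 1 window, of EDN1, and in 14.0% of all windows.

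Per kilobase in NS, the 10 genes were ordered VEGFA, ANGPTL4 (45.5 ± 2.47 CPM per kilobase), PDGFA (28.4 ± 1.62), VEGFB (19.5 ± 0.77), EDN1 (9.02 ± 0.41), NRP1 (7.16 ± 0.31), PDGFB (6.88 ± 0.49), VEGFC (6.13 ± 0.77), PGF (3.59 ± 1.03) and NRP2 (1.81 ± 0.08). NRP1 overlapped PDGFB, and PDGFB overlapped VEGFC, so these neighbours were not separated by the spread of their libraries. In siKi the first 5 places by this length were the same, followed by PGF (6.43 ± 0.54), VEGFC (4.42 ± 0.59), NRP1 (3.39 ± 0.23), PDGFB (2.92 ± 0.49) and NRP2 (0.45 ± 0.14), with an overlap of NRP1 and PDGFB only (SD, n = 3). PGF thus moved from place 9 to place 6. This order depends on the length used: with all annotated exons merged, ANGPTL4 was first in both groups, VEGFA went from place 3 to place 2 as VEGFB went from 2 to 3, and PGF went from place 9 to place 8. Among 14645 tested genes with a length, NRP2 stood at percentile 35.9 in NS and 12.9 in siKi, and VEGFA at 92.0 and 95.1.

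The genes whose levels followed these patterns most closely were found by the root mean square difference of centred log2 CPM over the 6 libraries. For VEGFA, the member with the smallest p among those that rose, they were LINC00842 (0.04), ZNF3 (0.05), DENND5A (0.05), SETD5 (0.05) and PCTP (0.06). For NRP2, the member with the smallest p among those that fell, they were ARVCF (0.10), SEMA4F (0.10), SERPINA1 (0.11), LIF (0.12) and CTNNBIP1 (0.13), with log2 fold changes from -2.14 to -1.82. Each likeness includes the difference between the groups that all these genes share.

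The genes around the 10 were followed in lists of pathway partners. Their median change on the log2 scale was 0.87 for the other ligands, -0.49 for the proteases, -0.29 for the semaphorins and plexins, -0.65 for the other angiogenic factors, -1.06 for the inhibitors, 0.20 for the HIF list and 0.20 for the PPAR list, beside 0.08 over all tested genes. The counts of calls below stand beside the 34.0% of all tested genes that passed with all 6 libraries, and the 58.4% that passed without siKi replicate 1.

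Of the other ligands of the VEGF, PDGF, endothelin and angiopoietin families, 4 of 15 passed the filter and 1 of the 4 rose. This was EDN2, a close relative of EDN1, which went from 0.25 ± 0.17 to 2.11 ± 0.59 CPM (SD, n = 3; log2 fold change 3.06, adjusted p = 0.000624 by edgeR), from 6, 2 and 11 counts in NS to 70, 70 and 44 in siKi. PDGFC, with a log2 fold change of -0.05, and ANGPT1, with 0.75, did not pass (adjusted p = 0.846 and 0.107). ANGPT1 was at 5.35, 4.84 and 3.56 CPM in NS and at 3.68, 11.3 and 8.18 CPM in siKi, with siKi replicate 1 inside the NS range. Without that library 3 of the 4 genes were called higher.

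Of the proteases that process or degrade these ligands, 6 of 9 were tested, 4 fell and 1 rose. FURIN (-0.58), which cleaves the precursors of VEGFC and of the PDGF chains, fell, as did PCSK6 (-0.99), a protease of the same kind. ECE1 (-0.48), which releases mature endothelin, fell too, and so did CCBE1 (-0.49), a secreted cofactor in VEGFC processing and not a protease. ADAMTS3, also on this list, had 1, 1 and 2 counts in NS and 1, 0 and 4 in siKi and was not tested. MME, which degrades endothelin among other peptides, rose by 2.42 on the log2 scale, from 0.50 ± 0.23 to 2.68 ± 0.81 CPM. With any one of the 5 libraries other than siKi replicate 1 left out, the list gave 3 calls, and without siKi replicate 1 it gave 6.

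Of the class 3 semaphorins, plexins and neuropilin adaptors, 12 of 13 were tested, 4 fell and none rose. The share of calls in either direction was near the 34.0% of all tested genes. Among all tested genes, 16.0% were called lower and 18.0% higher. SEMA3A, the semaphorin that binds NRP1, fell from 3.56, 3.20 and 4.47 CPM in NS to 0.67, 0.76 and 1.24 CPM in siKi, a log2 fold change of -2.06 (adjusted p = 0.000376 by edgeR). SEMA3C fell by 0.92, and the plexins PLXNA2 and PLXND1, the signalling partners of neuropilins, fell by 0.95 and 0.97 on the log2 scale. SEMA3F, the semaphorin that binds NRP2, was at 10.9 ± 1.10 CPM in NS and 10.3 ± 1.01 CPM in siKi (SD, n = 3; log2 fold change -0.08, adjusted p = 0.716 by edgeR). Without siKi replicate 1, 7 genes of this list were lower and 1 higher.

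Of 18 other secreted angiogenic factors, 16 were tested, 4 rose and 7 fell. FGFBP1, which releases fibroblast growth factors from the matrix, fell by 2.61 on the log2 scale, from 59.1 ± 3.48 to 9.68 ± 0.31 CPM. APLN, the ligand of the apelin receptor, fell by 2.10, and the matrix protein CCN1 fell by 1.12. ADM, the vasodilator peptide adrenomedullin, rose from 44.0, 38.0 and 38.4 CPM in NS to 105, 89.4 and 90.3 CPM in siKi, a log2 fold change of 1.24 (adjusted p = 3.14e-05 by edgeR). The other 3 that rose were ANG (1.30), PTN (1.07) and MDK (0.33). Without siKi replicate 1, 5 genes of this list were called higher and 9 lower.

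Of 17 genes listed as secreted inhibitors of angiogenesis, 12 were tested, 8 fell and 2 rose. Those that fell include SEMA4D (-0.60 on the log2 scale), a membrane semaphorin that is not a plain inhibitor. THBS1, thrombospondin-1, fell from 1436 ± 114 to 311 ± 30.1 CPM, a log2 fold change of -2.21, and the metalloproteinase inhibitor TIMP2 and the matrix protease ADAMTS9 fell by 1.09 and 1.02. ISM1 fell from 39, 49 and 29 counts to 0, 5 and 3. The 2 that rose were VASH1, by 1.35 on the log2 scale, and COL4A3, by 1.66. Without NS replicate 3 the inhibitors gave 6 calls in all, and without siKi replicate 1 they gave 11.

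Of the HIF subunits, regulators and hypoxia targets, all 21 were tested, 9 rose and 1 fell. ADM, which is also among the angiogenic factors above, rose, as did DDIT4 (1.00 on the log2 scale, an inhibitor of mTORC1 signalling). NDRG1 (0.92) and EGLN3 (0.77, a HIF prolyl hydroxylase) rose too, while LDHA, which makes lactate, fell by 0.63. The 11 genes that did not pass included the targets CA9 (0.32), SLC2A1 (0.20), BNIP3 (-0.07), PGK1 (-0.16) and ENO1 (-0.30). Whether HIF had a part in the rise of VEGFA was not tested. The subunits themselves did not pass: HIF1A had a log2 fold change of -0.31 (adjusted p = 0.0947 by edgeR) and EPAS1 one of 0.02 (adjusted p = 0.905 by edgeR). HIF activity is set mainly by the breakdown of the subunit proteins, which these RNA counts do not measure. Without siKi replicate 1 the list gave 9 higher and 7 lower genes, where 28.9% of all tested genes were higher and 29.5% lower.

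Of the PPAR receptors, PPAR targets and lipases around ANGPTL4, 8 of 15 were tested, 1 rose and 2 fell, a share of calls near the 34.0% of all tested genes. PLIN2, a protein of lipid droplets, rose by 2.40 on the log2 scale, from 0.69 ± 0.23 to 3.64 ± 0.38 CPM. The endothelial lipase gene LIPG fell by 1.81 and the receptor PPARD by 0.76. ANGPTL4, a known target of PPARD as well as of HIF, did not pass the threshold with all 6 libraries, as given above. Without composition scaling the list gave 6 calls.

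Markers of other cell types were low beside the epithelial sum. The summed level of the 10 endothelial markers was 4.20 to 5.91 CPM in NS and 1.59 to 2.22 CPM in siKi, most of it ROBO4, which fell by 1.64 on the log2 scale. CLDN5 was at 0 in all NS libraries and CDH5 in all siKi libraries. The 7 fibroblast markers summed to 16.5 to 19.7 CPM in NS and 18.3 to 24.2 CPM in siKi. Among them 0 of 2 tested passed (edgeR, also 0 at an unadjusted p under 0.05, and 1 call by DESeq2). COL3A1 was at 0 in NS and LUM at 0 in siKi. DCN, which was not tested, had 0, 1 and 2 counts in NS and 8, 11 and 19 in siKi. The 5 leukocyte markers summed to 7.04 to 7.49 CPM and 3.62 to 6.85 CPM, with 0 of 2 tested passing (edgeR, 1 at an unadjusted p under 0.05, and 0 by DESeq2), and 3 of the 5 have no row. Among the 8 epithelial markers CDH1, SFN, EPCAM, KRT5 and TP63 fell and KRT17 rose, CDH1 from 171 ± 4.88 to 83.6 ± 12.8 CPM and KRT17 from 1727 ± 122 to 2799 ± 360 CPM (SD, n = 3). The part of these marker changes in the levels of the 10 genes was not tested.

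**Figure D4:**
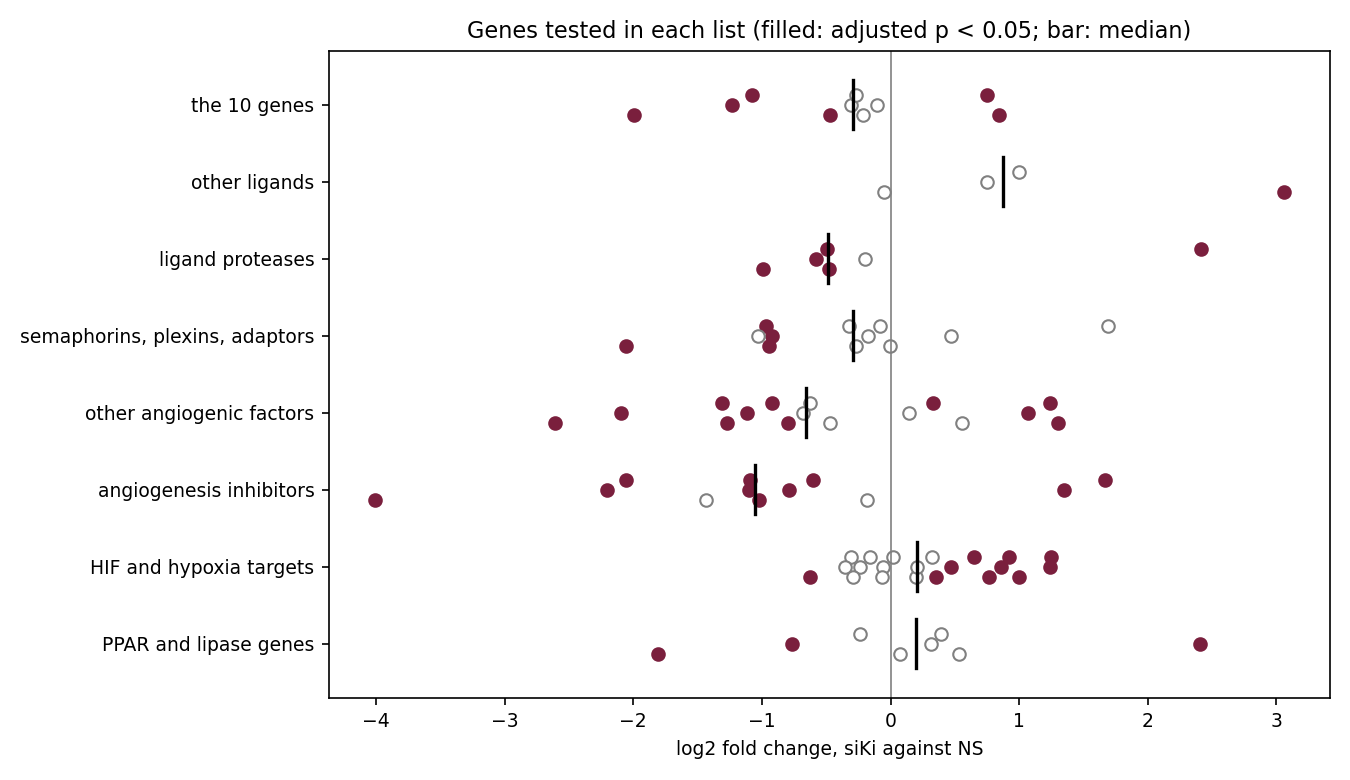
The log2 fold change (x axis, siKi against NS) of each tested gene of the 10 genes and of each list around them (rows), filled where the adjusted p was under 0.05, with a vertical bar at the median; vertical offsets within a row only separate the points. The inhibitors have the lowest median, -1.06, and the median of the 10 genes is -0.29.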

How the data were processed

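SCC-9 RNA from 3 NS and 3 siKi libraries had been sequenced by the authors as stranded poly(A) libraries with paired reads. The deposited values are whole-number counts of reads per gene, without normalization, and were used as deposited. The submitters' processing notes name HISAT2, DESeq2 and GRCh38. The counting tool, its use of the strand and the annotation release are not given in the sources used here. Samples were grouped by their titles.

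All genes were fitted together with edgeR 4.0.16 in R 4.3.3 (filterByExpr, TMM factors, robust quasi-likelihood F-test), and p-values were adjusted by Benjamini-Hochberg over the 14661 tested genes. The biological coefficient of variation was 0.157 with all 6 libraries and 0.0625 without siKi replicate 1. The study used DESeq2, which was an alternative here (version 1.42.0), beside limma-voom (3.58.1), other scalings and filters, a replicate block and each library left out. An exact permutation test of 3 against 3 libraries cannot give a p under 0.1. Intervals are 95%. The script was tested on simulated counts. Gene positions and canonical transcript lengths came from the GENCODE annotation of GRCh38, with 25283 of 25349 gene identifiers matched without their version. Levels are CPM, and CPM per kilobase between genes, without a pseudocount. Likeness used log2 CPM with an offset of 0.02.

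The 10 genes and all lists were chosen with earlier results of these data known. Named were the 10 genes, MKI67, from each list at most the 4 genes with the smallest p among those passing (and a fixed set of receptors, semaphorins, proteases and HIF subunits whatever their values), and the 5 genes most like VEGFA and NRP2. LDHA, CA9, SLC2A1, BNIP3, PGK1, ENO1, PDGFC, ANGPT1, ANG, PTN, MDK, VASH1, COL4A3 and SEMA4D were added after their values were seen. So were KRT5, TP63, CLDN5, CDH5, COL3A1, LUM, DCN and ADAMTS3.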

Additional observations from a re-analysis of the deposited data

How the results depend on the processing

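The calls of VEGFA, PDGFB, NRP1 and NRP2 and their directions held under all 14 settings. Without composition scaling the calls over all genes split into 4030 higher and 1632 lower, against 2639 and 2351 with TMM factors, the 10 genes had 1 higher DEG (PGF), the PPAR list gave 6 calls, and EDN1 turned to a log2 fold change of 0.064. DESeq2 and the fit without a filter each gave 1 call among the fibroblast markers. The other ligands gave 2 calls without a filter and 0 with at least 10 counts in every library, where EDN2 was no longer tested. Over the fits that left out 1 library each, the calls of the 10 genes ranged from 1 to 2 higher and from 3 to 7 lower, the higher DEGs among them from 0 to 1, and the calls over all genes from 1598 to 4343 higher and from 1552 to 4422 lower. The calls in the lists ranged from 3 to 6 for the proteases and from 1 to 3 for the other ligands. They ranged from 4 to 8 for the semaphorins and plexins and from 9 to 14 for the other angiogenic factors. For the inhibitors they ranged from 6 to 11 and for the HIF list from 7 to 16. For the fibroblast markers they ranged from 0 to 1 and for the leukocyte markers from 0 to 2. The highest counts of calls over all genes came without siKi replicate 1; the cause was not tested.

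Replicate numbers are shared by the labels of both groups, but same-numbered libraries did not deviate together (correlations of -0.03, -0.01 and -0.04), so the numbers were not taken as pairs. With the replicate number as a block, 2 of the 10 genes were called higher and 3 lower, VEGFC (-0.47, adjusted p = 0.0682) being lost.

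From counts instead of counts per kilobase, the shares in NS and siKi were 81.6 and 89.3% for VEGFA, 11.7 and 6.14% for VEGFB, 4.57 and 2.15% for VEGFC, 2.07 and 2.41% for PGF and 75.2 and 85.6% for PDGFA, and 77.0% for NRP1 in NS. With merged exons, an alternative chosen after seeing the data, they were 41.3 and 58.8% for VEGFA, 43.4 and 29.4% for VEGFB, 12.8 and 7.83% for VEGFC, 2.61 and 3.94% for PGF and 72.5 and 83.8% for PDGFA. At the depth of these libraries 0 of the 9 receptors reached the filter, and the fit without a filter called 0 of them.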
